A study of Arabidopsis thaliana with 25 samples.

Results

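The transcripts described here are those of genes carried by the mitochondrial genome of Arabidopsis thaliana. They were chosen as every probe set that the array's probe table pairs with exactly 1 gene lying on that genome, with chloroplast genes left out. The rule gave 23 probe sets of 16 genes, out of 22746 probe sets tested, and all 16 genes were matched to RefSeq by symbol or synonym. The gene table lists 32 protein-coding symbols on the mitochondrial genome. A further 12 probe sets were paired with a mitochondrial gene plus a second gene, in 11 of them a nuclear gene of chromosome 2, and were kept apart.

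RNA was measured on 25 Affymetrix ATH1 arrays. They read each transcript through a set of short probes and give 1 log2 value per probe set. All plants were 10-day-old seedlings of the Col-0 background, cut into roots and shoots after the treatment. The lines were mpk6, in which a T-DNA insertion disrupts the mitogen-activated protein kinase gene MPK6, MPK6ox, which expresses MPK6 constitutively from the 35S promoter, and wild type (WT). Hypoxia was an airtight chamber filled with 99.998% argon, and normoxia was an open box of the same kind used as a mock treatment. Both treatments lasted 2 h according to the protocol, but 9 h is written in the source names of hypoxic samples, which leaves the length of the hypoxia uncertain. Each of the 12 groups of line, organ and treatment had 2 arrays, except hypoxic MPK6ox roots, which had 3. The labels call the samples biological replicates without saying how they were grown apart, so the p-values measure only the spread between these samples. The line labels were not checked against MPK6 itself, which was not analysed here.

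Mitochondria keep a small genome whose protein-coding genes serve mainly respiration: subunits of complex I (NADH dehydrogenase), complex III, complex IV (cytochrome c oxidase) and ATP synthase, with factors that attach haem to c-type cytochromes, ribosomal proteins, an intron maturase and a translocase subunit. Most subunits of the same complexes are encoded in the nucleus and imported, so each complex is assembled from products of both genomes. In plants the mitochondrial primary transcripts need extensive splicing and C-to-U editing, and nad1, nad2 and nad5 are pieced together from separately transcribed parts. Oxygen is the final electron acceptor of this chain, at complex IV. Plant mitochondrial mRNAs mostly lack stable poly(A) tails, while the labelling kit used here starts its synthesis from poly(A). Whether a rise or fall described below is one of all mRNA of a gene or of its poly(A) part was not tested.

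By role, 8 genes with 15 probe sets encode complex I subunits (nad1, nad2, nad4, nad4L, nad5, nad6, nad7 and nad9). The genes cox1 and cox2 encode the catalytic core subunits of complex IV. Of the cytochrome c maturation factors, ccmB, ccmFC, ccmFN1 and ccmFN2 were measured, listed in the array's table as ccb206, ccb452, ccb382 and ccb203. The remaining members were matR, the intron maturase gene that lies inside a nad1 intron, and mttB (listed as orfX), a subunit of the twin-arginine translocase. 14 genes had 1 probe set each, nad5 had 2 and nad1 had 7. The array's table does not say which part of nad1 each of its 7 probe sets reads.

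The probe sets covered a wide range of signal. Their means over all 25 arrays ran from 4.50 on the log2 scale for nad1 257323_at to 9.31 for nad4 244929_at. The next brightest were cox1 257333_at at 8.29 and ccmFC 244951_s_at at 8.05, and the next dimmest were nad7 244925_at at 5.10 and nad1 257321_at at 5.15. 6 of the 23 lay in the dimmest 25% of all tested probe sets, namely nad7, matR, nad2 and the nad1 probe sets 257321_at, 257323_at and 257329_at. The signal of a probe set also depends on its probes, so these levels give no order of expression between genes.

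Averaged over the 23 probe sets, the highest values of the mitochondrial transcripts were in hypoxic shoots. The mean over the 23 probe sets lay between 6.02 and 6.56 in the 7 hypoxic root arrays (median 6.40), against 5.91 to 6.25 in the 6 normoxic root arrays (median 6.11). It lay between 6.38 and 7.05 in the 6 hypoxic shoot arrays (median 6.84), against 6.18 to 6.46 in the 6 normoxic shoot arrays (median 6.33). The hypoxic arrays were thus mostly the higher ones in both organs, and in both organs their range overlapped that of normoxia.

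**Figure D1:**
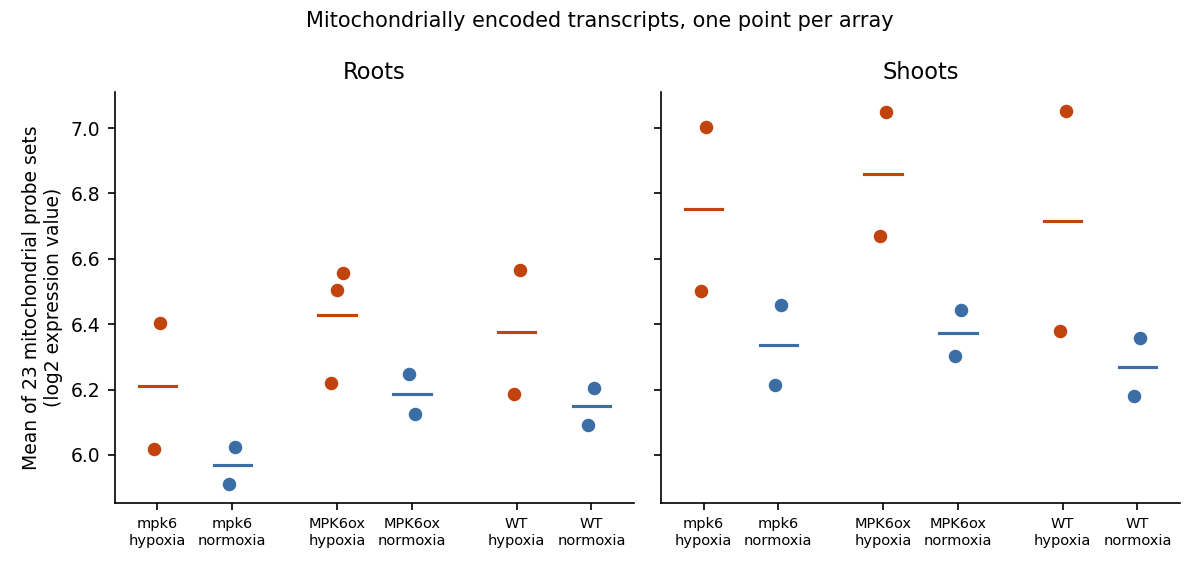
Mean log2 value of the 23 mitochondrial probe sets (vertical axis) in each array, by line and treatment, for roots (left panel) and shoots (right panel). Each point is 1 array and each bar is the mean of a group of 2 or 3 arrays; hypoxic groups are in orange and normoxic groups in blue. The hypoxic shoot arrays reach 7.05, against at most 6.46 in normoxic shoots.

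1 array, hypoxic mpk6 root replicate 1, stood apart in control measures given with the root results, and the root calls are given with and without it.

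The first question was how these transcripts answered low oxygen in shoots. Hypoxia was set against normoxia as the mean of the changes in the 3 lines, with limma fitted over all groups and probe sets and Benjamini-Hochberg adjustment over all 22746, a probe set being called at an adjusted p under 0.05. In shoots, 7 of the 23 mitochondrial probe sets rose and 0 fell, whereas 3.14% of all tested probe sets were called higher and 5.28% lower. All 23 changes lay above 0, between 0.07 and 1.09 on the log2 scale, with a median of 0.45, and the median of all tested probe sets was -0.004. At an unadjusted p under 0.05, 14 of the 23 passed in limma. The shares of all probe sets given beside such counts, here and below, are at an adjusted p and do not match them.

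The most changed was nad1, which encodes a membrane subunit of complex I. Its probe set nad1 257324_at read 7.88 and 8.68 in hypoxic mpk6 shoots, 7.81 and 8.50 in hypoxic MPK6ox shoots and 7.74 and 8.86 in hypoxic WT shoots. In normoxia it read 7.05 and 7.48 in mpk6 shoots, 7.06 and 7.25 in MPK6ox shoots and 7.05 and 7.05 in WT shoots. Every hypoxic shoot array was above every normoxic one. The change was 1.09 ± 0.20 (SE, limma, n = 6 and 6 arrays, adjusted p = 0.00229), a fold of 2.12.

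A second nad1 probe set, nad1 257325_at, behaved alike: 5.84 and 6.73 in hypoxic mpk6 shoots, 5.94 and 6.56 in hypoxic MPK6ox shoots and 5.94 and 6.66 in hypoxic WT shoots. In normoxic shoots its 6 arrays lay between 5.29 and 5.67, with a median of 5.48. The groups did not overlap. The change was 0.79 ± 0.17 (SE, limma, n = 6 and 6, adjusted p = 0.00633). The dimmer nad1 257321_at read 5.16 to 5.76 in hypoxic shoots (median 5.41), against 5.0 to 5.14 in normoxic shoots (median 5.07). It also separated the groups, with a smaller change of 0.36 ± 0.10 (SE, limma, n = 6 and 6, adjusted p = 0.0285). Of all tested probe sets, 2.41% had every hypoxic shoot array above every normoxic one.

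The 7 nad1 probe sets did not move by the same amount in shoots. nad1 257322_at changed by 0.83 ± 0.26 and nad1 257323_at by 0.45 ± 0.14 (SE, limma, n = 6 and 6, adjusted p = 0.0552 and 0.0589). The smallest changes were 0.10 ± 0.09 at nad1 257329_at and 0.07 ± 0.09 at nad1 257327_at. The 3 called nad1 probe sets and the other 4 therefore span the whole range of the 23 members, and no test of the differences between probe sets was made.

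Among the other complex I genes, nad5, which encodes another membrane subunit, had 1 of its 2 probe sets called. nad5 257338_s_at read 6.58 and 7.62 in hypoxic mpk6 shoots, 7.36 and 7.70 in hypoxic MPK6ox shoots and 6.40 and 7.67 in hypoxic WT shoots. Its normoxic shoot arrays lay between 6.32 and 6.64 (median 6.43). Here 4 hypoxic arrays stood clear of normoxia and the first replicates of mpk6 and WT did not. The change was 0.75 ± 0.22 (SE, limma, n = 6 and 6, adjusted p = 0.0382), and the other nad5 probe set, 257337_at, gave 0.62 ± 0.20 (adjusted p = 0.0716).

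The subunit genes nad6 and nad9 had large changes with a wide spread. nad6 244953_s_at lay between 5.98 and 7.58 in hypoxic shoots (median 6.93), against 5.65 to 6.26 in normoxic shoots (median 5.95). Its change was 0.91 ± 0.28 (SE, limma, adjusted p = 0.056). nad9 changed by 0.70 ± 0.25 (adjusted p = 0.0978). The changes of nad4L, nad4, nad2 and nad7 were 0.45, 0.39, 0.15 and 0.08, none of them called.

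Neither complex IV gene was called in shoots. cox1 257333_at lay between 8.19 and 9.38 in hypoxic shoots, against 8.10 to 8.64 in normoxic shoots, a change of 0.46 ± 0.25 (SE, limma, adjusted p = 0.364). cox2 changed by 0.40 ± 0.17 (adjusted p = 0.181).

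Of the cytochrome c maturation genes, 2 of 4 rose in shoots. ccmFC 244951_s_at, a part of the haem lyase that joins haem to the cytochromes, read 8.37 and 8.83 in hypoxic mpk6 shoots, 8.50 and 8.83 in hypoxic MPK6ox shoots and 8.01 and 8.92 in hypoxic WT shoots. Its normoxic shoot arrays lay between 7.85 and 8.12 (median 7.95), and hypoxic WT shoot replicate 1 fell within that range. The change was 0.62 ± 0.17 (SE, limma, n = 6 and 6, adjusted p = 0.0357). ccmFN2 244919_at, of the same haem lyase, lay between 5.86 and 6.22 in hypoxic shoots (median 6.05), against 5.58 to 5.93 in normoxic shoots (median 5.76), and changed by 0.28 ± 0.08 (adjusted p = 0.0404). ccmFN1 and ccmB, the membrane part of a transporter, changed by 0.18 and 0.09 and were not called.

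The maturase gene matR rose, and mttB was not called. matR 244926_s_at lay between 5.29 and 6.07 in hypoxic shoots (median 5.75), against 5.16 to 5.29 in normoxic shoots (median 5.22), with the lowest hypoxic array, WT replicate 1, inside the normoxic range. The change was 0.47 ± 0.13 (SE, limma, n = 6 and 6, adjusted p = 0.0402). For mttB it was 0.10 ± 0.15 (adjusted p = 0.839).

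**Figure D2:**
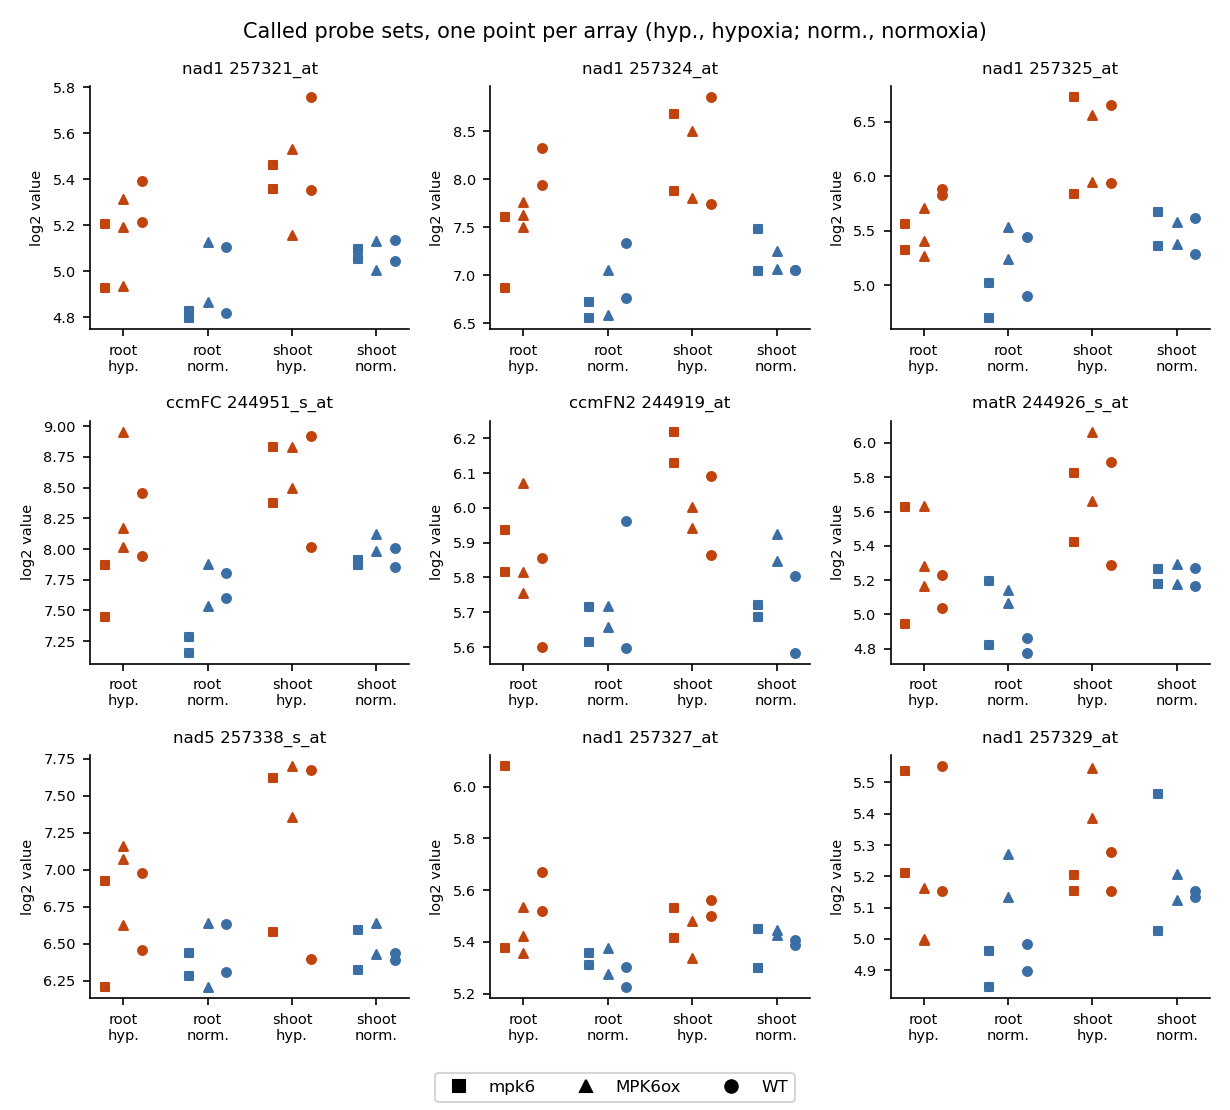
Log2 value (vertical axis, a separate scale in each panel) of the 9 mitochondrial probe sets called for hypoxia in either organ, 1 point per array. Columns are hypoxic and normoxic roots and then hypoxic and normoxic shoots; squares are mpk6, triangles MPK6ox and circles WT. In shoots, the 3 nad1 panels of the top row show no overlap between hypoxia and normoxia.

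The calls in shoots depended on single arrays. nad1 257324_at and 257325_at kept their calls without any 1 array. Only those 2 of the 7 calls were left without any 1 of 7 arrays: normoxic WT replicate 1, hypoxic WT replicate 2, normoxic mpk6 replicate 1 or 2, hypoxic mpk6 replicate 2, normoxic MPK6ox replicate 1 or hypoxic MPK6ox replicate 2. The count was 4 without normoxic WT replicate 2, 3 without normoxic MPK6ox replicate 2, and 12 without hypoxic WT or mpk6 replicate 1. ccmFN2 also lost its call without hypoxic mpk6 or MPK6ox shoot replicate 1 or any 1 of the normoxic mpk6 and MPK6ox root arrays, and matR without normoxic MPK6ox root replicate 1 or 2. Leaving out the dimmest 25% of probe sets lost the call of ccmFN2. That fit also left out matR and nad1 257321_at themselves, so their calls were not tested in it. Fitting the organs separately lost the calls of matR and nad5 257338_s_at. Every one of these calls was for a rise. Centring every array on its median gave 11 calls, and then 3.93% of all probe sets were called higher and 3.72% lower.

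In roots, 4 of the 23 mitochondrial probe sets rose under hypoxia and 0 fell, whereas 9.5% of all tested probe sets were called higher and 14.8% lower. All called probe sets except that of ccmFC belonged to nad1, which has 7 of the 23. The calls thus came from nad1 and ccmFC alone among the 16 genes. 19 of the 23 changes lay above 0, the range was -0.10 to 0.83, and the median was 0.25, against 0.01 for all tested probe sets. At an unadjusted p under 0.05, 7 of the 23 passed in limma. For 0 of the 23 did all hypoxic root arrays lie above all normoxic ones, which 3.69% of all probe sets did.

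nad1 257324_at again changed most. It read 6.87 and 7.61 in hypoxic mpk6 roots, 7.50, 7.76 and 7.63 in hypoxic MPK6ox roots and 7.94 and 8.33 in hypoxic WT roots. In normoxia it read 6.55 and 6.72 in mpk6 roots, 7.06 and 6.58 in MPK6ox roots and 6.76 and 7.33 in WT roots. Within each line the hypoxic arrays were above the normoxic ones, while the ranges pooled over the lines overlapped. The change was 0.83 ± 0.20 (SE, limma, n = 7 and 6, adjusted p = 0.00497).

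ccmFC 244951_s_at read 7.45 and 7.87 in hypoxic mpk6 roots, 8.01, 8.17 and 8.96 in hypoxic MPK6ox roots and 7.94 and 8.46 in hypoxic WT roots. In normoxia it read 7.16 and 7.28 in mpk6 roots, 7.88 and 7.54 in MPK6ox roots and 7.61 and 7.81 in WT roots. Again each line's hypoxic arrays were above its normoxic ones. The change was 0.54 ± 0.17 (SE, limma, n = 7 and 6, adjusted p = 0.0295).

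The other 2 calls in roots were small changes of nad1 probe sets, and neither was called in shoots. nad1 257327_at read 6.08 and 5.38 in hypoxic mpk6 roots, and the other hypoxic root arrays lay between 5.36 and 5.67, against 5.22 to 5.38 in normoxic roots. The single high array was hypoxic mpk6 root replicate 1. The change was 0.28 ± 0.09 (SE, limma, n = 7 and 6, adjusted p = 0.0287). Without that array it was 0.16 and not called (limma, adjusted p = 0.0675). nad1 257329_at lay between 5.0 and 5.55 in hypoxic roots (median 5.16), against 4.85 to 5.27 in normoxic roots (median 4.97), and changed by 0.24 ± 0.09 (adjusted p = 0.0481).

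The remaining members in roots were not called. nad1 257325_at and 257321_at changed by 0.45 ± 0.17 and 0.25 ± 0.09 (SE, limma, adjusted p = 0.0607 and 0.0667), and matR by 0.28 ± 0.13 (adjusted p = 0.135). cox1 changed by 0.24 ± 0.24 and cox2 by 0.05 ± 0.16. mttB changed by 0.25 ± 0.14. The 4 changes below 0 were ccmB at -0.10, nad9 at -0.06, nad2 at -0.02 and nad7 at -0.02.

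**Figure D3:**
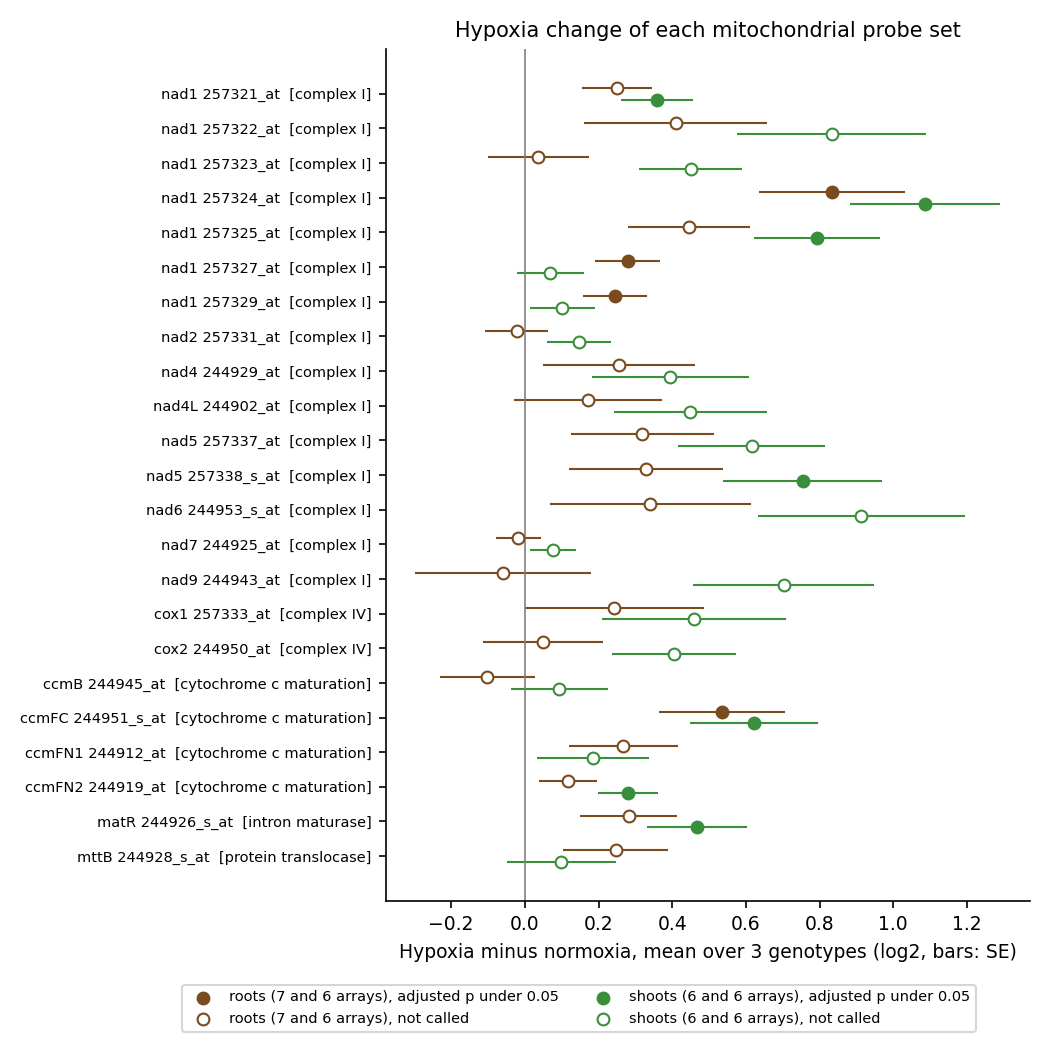
Change under hypoxia (hypoxia minus normoxia, log2, mean over the 3 lines, horizontal axis) of each of the 23 mitochondrial probe sets, ordered by role, in roots (brown, 7 and 6 arrays) and shoots (green, 6 and 6 arrays). Bars are the SE of the limma fit, and filled points have an adjusted p under 0.05. All shoot changes lie above 0, and in roots the largest is 0.83 at nad1 257324_at.

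The root calls also rested on few arrays. nad1 257324_at alone kept its call without any 1 array, and it was the single call left without normoxic mpk6 root replicate 1. The count was 2 without normoxic WT root replicate 1, hypoxic WT root replicate 2, normoxic mpk6 root replicate 2, normoxic MPK6ox root replicate 1 or 2, or hypoxic MPK6ox root replicate 3. ccmFC lost its call in 5 of the 25 fits that left out 1 array, those without normoxic WT root replicate 1, hypoxic WT root replicate 2, normoxic mpk6 root replicate 1, hypoxic mpk6 root replicate 2 or normoxic MPK6ox root replicate 2. nad1 257327_at lost its call in 7 of these fits, with quantile normalization and with the organs fitted separately. nad1 257329_at lost its call in 21 of these fits, with quantile normalization, with array weights and with the organs fitted separately. Without hypoxic mpk6 root replicate 1, nad1 257324_at and ccmFC kept their calls, both other calls were lost, and 2 other members were called, so that the count stayed at 4. Quantile normalization gave 2 calls, and centring every array on its median gave 7, with 15.1% of all probe sets then called higher and 11.7% lower.

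Genes listed as tissue markers moved with the root comparison. Of the RNA control measures, 25S rRNA averaged higher in hypoxia than in normoxia in both organs, with overlapping ranges. The 5S rRNA control averaged 5.40 in hypoxic and 5.41 in normoxic roots. Of 16 nuclear photosynthesis genes listed as shoot markers, 5 were measured (PRK, PSBW, RCA, PSAE-1 and PSAN), and all 5 were called higher in hypoxic roots, by 1.74 to 2.09. Their values summed on the linear scale to 2717 to 10628 in hypoxic roots, against 590 to 2901 in normoxic roots, and to 59447 to 67971 in hypoxic shoots, against 58959 to 69904 in normoxic shoots. Of 10 root markers 3 were measured (EXPA7, EXPA18 and PYK10), and all 3 were called lower in hypoxic roots. EXPA7 averaged 7.31 in hypoxic and 9.38 in normoxic roots, EXPA18 7.90 and 10.23, and PYK10 14.31 and 14.62. PYK10 was also high in normoxic shoots, at 13.74. Whether tissue make-up or a response of the marker genes themselves moved these values was not tested. The array's 25S rRNA control read 12.9 to 13.8 in hypoxic roots, against 11.96 to 13.1 in normoxic roots, and 13.2 to 13.8 in hypoxic shoots, against 13.0 to 13.5 in normoxic shoots. Hypoxic mpk6 root replicate 1, the array that was high for nad1 257327_at, also stood apart in the 3' minus 5' differences of the array's GAPDH and UBQ controls. Its difference was 1.09 for GAPDH, against 0.25 to 0.70 in the other root arrays, and 2.15 for UBQ, against 1.36 to 1.68. Its median over all probe sets, 6.87, was the lowest of all arrays. The part of these measures in the mitochondrial changes was not tested. In shoots, 0 of the 5 shoot markers and 0 of the 3 root markers were called by limma for hypoxia, and at an unadjusted p under 0.05 the counts were 0 and 1. In such bulk samples, fewer cells of a type and less RNA per cell cannot be told apart.

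Within each line, the same probe set led in 5 of 6 line and organ combinations. The hypoxia change of nad1 257324_at was 0.60 ± 0.35 in mpk6 roots, 0.81 ± 0.32 in MPK6ox roots and 1.09 ± 0.35 in WT roots (SE of the limma fit). In shoots it was 1.01 ± 0.35 in mpk6, 1.00 ± 0.35 in MPK6ox and 1.24 ± 0.35 in WT. In mpk6 roots the highest was nad6 at 0.93. The median over the 23 members was 0.24 in mpk6 roots, 0.21 in MPK6ox roots and 0.22 in WT roots, and 0.39, 0.60 and 0.37 in the shoots of mpk6, MPK6ox and WT.

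Whether the organs differed in their change under hypoxia was tested as the root change minus the shoot change. limma called 0 of the 23 members, against 7.54% of all tested probe sets, and 1 passed at an unadjusted p under 0.05. 19 of the 23 differences lay below 0, with a median of -0.20. The one that passed unadjusted was nad9 244943_at. It lay between 6.17 and 7.55 in hypoxic roots, against 6.32 to 7.37 in normoxic roots. In shoots it lay between 7.17 and 8.35 in hypoxia, against 6.58 to 7.45 in normoxia. Its difference was -0.76 ± 0.34 (SE, limma, adjusted p = 0.229). Without hypoxic mpk6 root replicate 2 or hypoxic MPK6ox shoot replicate 1, 1 member was called.

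The organs were also compared in normoxia. Between roots and shoots 1 of the 23 mitochondrial probe sets was called, lower in roots, whereas 56.9% of all tested probe sets were called, 30.4% higher in roots and 26.5% lower. 21 of the 23 differences lay below 0, from -0.69 to 0.14, with a median of -0.19, and 3 passed at an unadjusted p under 0.05. The called probe set was nad1 257322_at. It read 5.87 and 6.72 in mpk6 roots, 6.73 and 6.27 in MPK6ox roots and 6.61 and 6.72 in WT roots. In shoots it read 7.23 and 7.58 in mpk6, 6.96 and 7.41 in MPK6ox and 6.63 and 7.28 in WT. Normoxic WT shoot replicate 1, at 6.63, overlapped the root arrays, and the other shoot arrays were all higher. The difference was -0.69 ± 0.26 (SE, limma, n = 6 and 6, adjusted p = 0.0282).

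Nuclear genes of the same respiratory chain and genes of the chloroplast genome were compared between the organs in the same way. Of the nuclear genes listed for complexes I to V and cytochrome c, 24 were measured, and 17 were higher in roots and 0 lower, with a median difference of 0.53. Complex II, which is encoded wholly in the nucleus in Arabidopsis, had all 3 measured genes higher, SDH2-1 by 0.95, SDH1-1 by 0.93 and SDH2-2 by 0.69. Both cytochrome c genes were higher too, CYTC-2 by 0.53 and CYTC-1 by 0.44. Of 69 chloroplast-encoded probe sets, 67 were lower in roots, with a median of -2.87. The difference between these sets and the mitochondrial members was not tested.

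**Figure D4:**
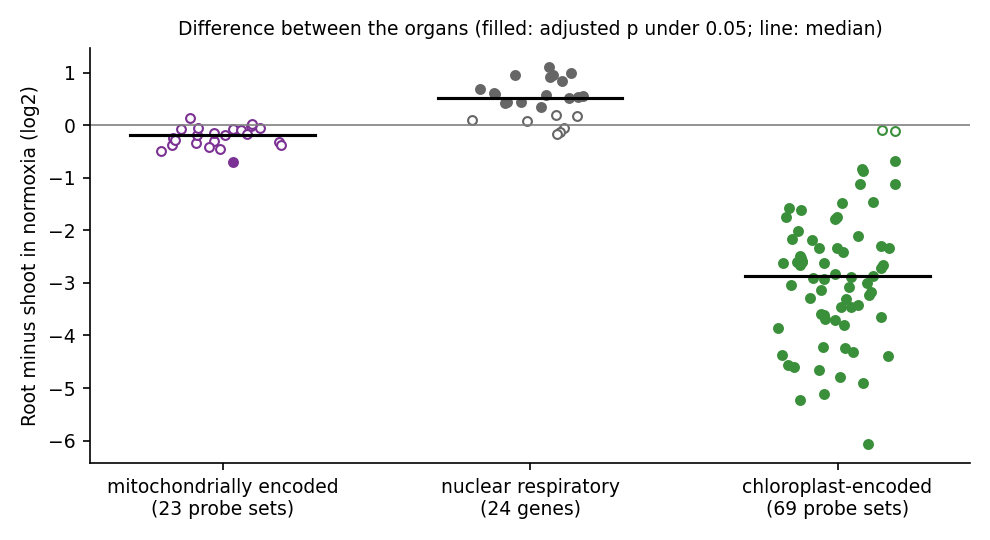
Root minus shoot difference in normoxia (log2, vertical axis) for the 23 mitochondrially encoded probe sets, 24 nuclear genes of the respiratory chain and 69 chloroplast-encoded probe sets. Each point is 1 probe set or gene, filled at an adjusted p under 0.05, spread sideways only for legibility; black lines are the medians of -0.19, 0.53 and -2.87.

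nad1 257322_at lost its call in 6 of the 25 fits that left out 1 array. Without normoxic WT root replicate 1, normoxic WT shoot replicate 2 or normoxic MPK6ox shoot replicate 2, 0 members were called. Without normoxic mpk6 root replicate 1, normoxic mpk6 shoot replicate 2 or normoxic MPK6ox root replicate 2, it lost its call and 1 other member was called. The count was 2 without normoxic WT root replicate 2, hypoxic WT shoot replicate 1 or 2, normoxic mpk6 root replicate 2, normoxic mpk6 shoot replicate 1, normoxic MPK6ox root replicate 1, or hypoxic MPK6ox root replicate 1 or 3. Centring every array on its median gave 9, and the share of all probe sets called in that fit is not given here. A replicate block raised the count in this comparison, in both hypoxia comparisons and in the organ difference, with the counts given at the end.

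The same lists were set beside the members for hypoxia. Over all tested probe sets, limma called 9.5% higher and 14.8% lower in roots, and 3.14% higher and 5.28% lower in shoots. These shares also stand beside the sets in the next paragraphs. Of the 24 nuclear respiratory genes, 0 rose and 2 fell in roots, SDH2-2 of complex II by 0.29 and AT5G61310, listed under complex IV, by 0.54. In shoots limma called 0 of the 24, and 1 passed at an unadjusted p under 0.05. Their median changes were -0.08 in roots and 0.00 in shoots, beside 0.25 and 0.45 for the mitochondrial members. Of the 69 chloroplast-encoded probe sets, 12 rose in roots and 2 in shoots, with medians of 0.29 and 0.11. All 5 measured genes of the low-oxygen response rose in both organs, PDC2, a pyruvate decarboxylase of fermentation, by 3.95 in roots and 3.04 in shoots.

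The 12 probe sets paired with a second gene gave changes of the same sign as the members for the most part. In roots 3 of the 12 rose, those listed with rpl2 (0.46), rps4 (0.44) and nad1 with AT2G07701 (0.37). In shoots 3 rose, those listed with atp1 (0.65), rpl5 (0.57) and nad1 with AT2G07701 (0.35). They name the ATP synthase subunit alpha (atp1) and ribosomal proteins, roles that the 23 members do not cover. The array's probes for these cannot assign the signal to the mitochondrial or the nuclear copy. The 23 members were listed with no second gene, but 5 of them carry the same name suffix, s_at, as these 12. They are the probe sets of matR, mttB, ccmFC and nad6, and the nad5 probe set called in shoots. Of these, ccmFC was called in both organs and matR in shoots. Whether nuclear copies add to the signal of the members was not tested.

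Of the nuclear genes listed for mitochondrial RNA handling, 6 were measured. In shoots, 2 fell under hypoxia and 0 rose: AT5G46920 averaged 8.26 in hypoxia and 8.80 in normoxia, a change of -0.54 ± 0.09 (SE, limma, n = 6 and 6, adjusted p = 0.00076). AT5G14580 averaged 5.32 in hypoxia and 5.65 in normoxia, a change of -0.33 ± 0.09 (adjusted p = 0.0378). In roots 1 rose, AT1G74350, by 0.22 ± 0.06 (adjusted p = 0.0138), and 0 fell. NDB2, an alternative NADH dehydrogenase that bypasses complex I, fell in roots by 0.77, the 1 called of 5 measured genes of alternative respiration.

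The series was built to ask what MPK6 does in the response to hypoxia, so each line was compared with WT over both treatments. In roots, limma called 0 of the 23 members in mpk6, against 0.585% of all tested probe sets, and 2 passed at an unadjusted p under 0.05. The lowest was nad1 257324_at, which averaged 6.94 in mpk6 roots and 7.59 in WT roots. Its difference was -0.65 ± 0.25 (SE, limma, n = 4 and 4, adjusted p = 0.362). The second was ccmFC, which averaged 7.44 in mpk6 roots and 7.95 in WT roots (adjusted p = 0.431). The 23 differences ran from -0.65 to 0.17, with a median of -0.13.

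MPK6ox roots had 0 of the 23 called by limma, against 0.945% of all tested probe sets, with 0 at an unadjusted p under 0.05. The differences ran from -0.36 at nad1 257324_at to 0.35 at ccmFN1, with a median of 0.03. In shoots, mpk6 had 0 of the 23 called, against 0.0264% of all probe sets, with 0 unadjusted and a range of -0.15 to 0.25. MPK6ox shoots had 0 of the 23 called, against 1.64%, with 0 unadjusted, a range of -0.12 to 0.36 and a median of 0.14. With 2 or 3 arrays in a group, the median SE of a member was 0.20 in each of these comparisons, so differences of the sizes measured here were not resolved.

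**Figure D5:**
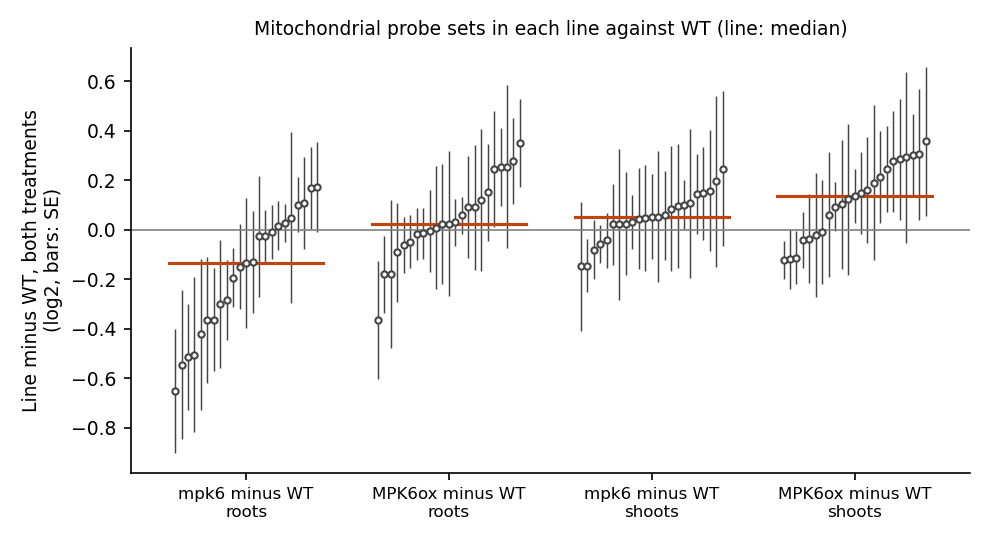
Difference from WT over both treatments (log2, vertical axis) of each of the 23 mitochondrial probe sets in mpk6 and MPK6ox roots and shoots. Points are sorted by value within each comparison, bars are the SE of the limma fit, and orange lines are the medians of -0.13, 0.03, 0.05 and 0.14; no point has an adjusted p under 0.05.

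The change under hypoxia was also compared between each line and WT. In all 4 tests, mpk6 or MPK6ox minus WT in roots or shoots, limma called 0 of the 23 members and 0% of all tested probe sets. For MPK6ox in roots 2 of the 23 passed at an unadjusted p under 0.05, and 0 did in the other 3 tests. These were nad1 257329_at at -0.56 ± 0.21 and ccmFN1 at 0.78 ± 0.36 (SE, limma, adjusted p = 0.999 for both). ccmFN1 244912_at read 8.05, 8.52 and 8.97 in hypoxic MPK6ox roots and 8.07 and 7.44 in normoxic MPK6ox roots, beside 7.73 and 7.82 in hypoxic WT roots and 7.84 and 7.76 in normoxic WT roots. The medians of the 23 were -0.002 in mpk6 roots, -0.04 in mpk6 shoots, -0.03 in MPK6ox roots and 0.06 in MPK6ox shoots.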

How the data were processed

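The deposited table holds log2 expression values for 25 arrays; RMA is named in the submitters' processing notes, without a version, and whether all arrays were normalized together is not given in the sources used here. Per the labels' protocols, total RNA was labelled with the 2-cycle kit. Groups, organs, treatments and replicate numbers were taken from the labels. The 64 array control probe sets were left out; 13513 of the 22746 tested probe sets had 1 gene in the probe table, 503 had several and 8730 were not listed there. limma 3.58.1 (R 4.3.3) was fitted on the values as deposited with 12 group means, 12 contrasts and eBayes (13 residual degrees of freedom, 3.41 prior), two-sided, and was tested on simulated data. Array medians lay between 6.87 and 7.07, arrays of 1 group correlated at 0.982 or more, and 0 pairs of arrays were identical. No depth applies to arrays; their number limits the precision. Alternatives were another normalization, centring, leaving out the dimmest 25%, other eBayes settings, array weights, separate fits per organ, a replicate block, and leaving out each array. Members called in a comparison, the 3 brightest and 3 dimmest, and the largest hypoxia change per role were named. The members and lists were chosen with earlier results of these data known. Coordinates and sequences were not used here.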

Additional observations from a re-analysis of the deposited data

How the results depend on the processing

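Under every alternative run, 0 results reversed, and all hypoxia calls of members stayed rises. nad1 257324_at kept its hypoxia call in both organs, and nad1 257325_at in shoots, in all 32 alternatives. For hypoxia in roots, 4 members were called; quantile normalization gave 2, centring on array medians 7, and leaving out 1 array 1 to 4. For hypoxia in shoots, 7 were called; centring gave 11, and leaving out 1 array 2 to 12. For the organ difference of the hypoxia effect, 0 were called, with 0 to 1 when 1 array was left out. For roots against shoots in normoxia, 1 was called; leaving out the dimmest 25% gave 2, quantile normalization 2, centring 9, eBayes with trend and robust settings 2, and leaving out 1 array 0 to 2. The 8 comparisons involving a line gave 0 in each fit that left out 1 array. The causes were not tested, except that leaving out an array also leaves fewer samples. Apart from centring in both hypoxia comparisons, the share of all tested probe sets called under an alternative is not given here.

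The replicate numbers in the titles are not stated to pair samples. With a replicate block, the counts were 6 for hypoxia in roots, 13 for hypoxia in shoots, 1 for the organ difference and 7 for roots against shoots. The share of all tested probe sets called with the block is not given here, so these counts have no background beside them. The difference between replicates 2 and 1 correlated between groups at -0.03 to 0.67 over all probe sets (median 0.30), and in 55 of 66 pairs of groups it was above 0.1.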

Other observations

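The mitochondrial probe sets differed between replicate numbers. The mean over the 23 was higher in replicate 2 than in replicate 1 in 11 of 12 groups, by 0.38 to 0.67 in hypoxic shoots and by 0.29 to 0.39 in hypoxic roots, against -0.12 to 0.24 in the normoxic groups. Over all tested probe sets, the share higher in replicate 2 lay between 45.2% and 53.1%. Within replicate 1, the mean was higher in hypoxia than in normoxia by 0.29, 0.37 and 0.20 in mpk6, MPK6ox and WT shoots, and the differences in roots were 0.11, -0.03 and 0.10. Within replicate 2 they were 0.55, 0.60 and 0.70 in shoots and 0.38, 0.38 and 0.36 in roots, in the same order of lines. The array's 25S rRNA control was also higher in replicate 2 than in replicate 1, in every group of both organs except hypoxic MPK6ox shoots. The actin 3' minus 5' difference was higher in replicate 2 than in replicate 1 in every shoot group, and in roots it went either way. What distinguishes the replicate numbers was not tested.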
